A study of Mus musculus with 5 samples.

Results

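The insulin-like growth factor (IGF) axis was followed in the embryonic mouse cortex through 10 genes chosen by name: the growth factors Igf1 and Igf2, the receptors Igf1r and Igf2r, the binding proteins Igfbp2, Igfbp3, Igfbp4 and Igfbp5, the RNA-binding protein gene Igf2bp1 and the long noncoding RNA H19. All 10 were among the 34590 gene symbols counted. The samples were cortical tissue of wild-type mouse embryos of a mixed strain background at E14.5, a stage of cortical neurogenesis, with no treatment. Polyadenylated RNA was sequenced in 3 medial and 2 lateral libraries. Nothing in the labels says whether libraries came from separate embryos or from pooled tissue, so the tests measure only the spread between these libraries, which may be technical.

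IGF1 and IGF2 are secreted peptides that bind the receptor tyrosine kinase IGF1R and promote growth, survival and division of cells, including cortical progenitors. IGF2R takes up IGF2 and carries it to lysosomes, and the secreted IGF binding proteins hold the peptides outside the cell until proteases release them. Igf2 and H19 are neighbouring imprinted genes that share enhancers, Igf2 being expressed from the paternal and H19 from the maternal allele in most, not all, tissues. In the embryonic brain, vessels, the meninges and the choroid plexus are known sources of IGF2.

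Medial libraries held 27406370 to 36460274 gene reads and lateral libraries 56147129 to 66981952. Levels are given as CPM, the reads of a gene scaled to a common library size (TMM), and 3 reads correspond to between 0.0456 and 0.105 CPM. Medial library 1 stood apart. Of 14 marker genes of meninges and fibroblasts, 12 were highest in it and 9 were at least 2-fold above every other library. Over all genes tested these shares were 30.8% and 2.29%. Only 10 of the 14 had enough reads to be tested, and Slc6a13, for example, had 8 reads in medial library 1. The summed level was 319 CPM against 32.4 and 39.1 in medial libraries 2 and 3 and 23.2 and 30.4 in the lateral libraries. The collagen gene Col1a1 stood at 97.2 CPM there and at most 4.62 CPM elsewhere, while Foxc1 (4.06 against at most 3.399 CPM) and Tbx18 (0.902 against up to 1.11 CPM), transcription factor genes of the meningeal lineage, stood apart less or not at all. Of 10 microglia markers 9 were highest in the same library (summed level 66.1 against 24.2 to 36.6 CPM), as were all 11 genes of the cortical hem (424 CPM against 149 to 173 CPM in the other medial libraries). At least 2-fold above every other library were 3 of the 10 microglia markers and 8 of the 11 hem genes. The pan-neuronal sum was lowest there, at 1250 CPM against 1656 to 3140 CPM. The 10 markers of cortical tissue, such as Emx1 and Pax6, were detected in every library, with summed levels from 1794 CPM in medial library 1 to 3160 CPM in lateral library 2. In bulk tissue, fewer cells of a type and less RNA per cell cannot be told apart. Differences between the regions are given with and without medial library 1.

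No IGF axis gene passed the threshold of 0.05 on the adjusted p between medial and lateral cortex. Of all 16229 genes tested with edgeR's quasi-likelihood test, 9.72% passed, 4.62% higher and 5.1% lower in medial cortex. Of the 10 IGF axis genes 0 passed, and 1, Igfbp4, had an unadjusted p under 0.05. Among all 16229 genes tested, 5231 had an unadjusted p under 0.05 in the same fit. DESeq2 called Igfbp4 alone (21.7% of all genes called), while limma-voom and the older form of the edgeR test called 0. The log2 fold changes of the 10 genes, medial over lateral, were positive for 5 and negative for 5, with a median of 0.07 against 0.01 for all genes tested. The 2 regions did not overlap for Igf1r, Igf2r and Igfbp4, 3 of 10, where the share for all genes was 53.3%. Medial library 1 was the highest or the lowest of the 5 libraries for 8 of the 10 genes, against 62.6% of all genes tested. It was the highest for 4 (30.8% of all genes) and the lowest for 4 (31.7%). In 3 of the 10, Igf1, Igf2 and H19, it was at least 2-fold above every other library, which held for 2.29% of all genes. In none was it 2-fold below every other. At a looser cutoff of at least 1.5-fold below every other, 1 gene qualified, Igfbp2 (1.92-fold), where 4.96% of all genes did.

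**Figure D1:**
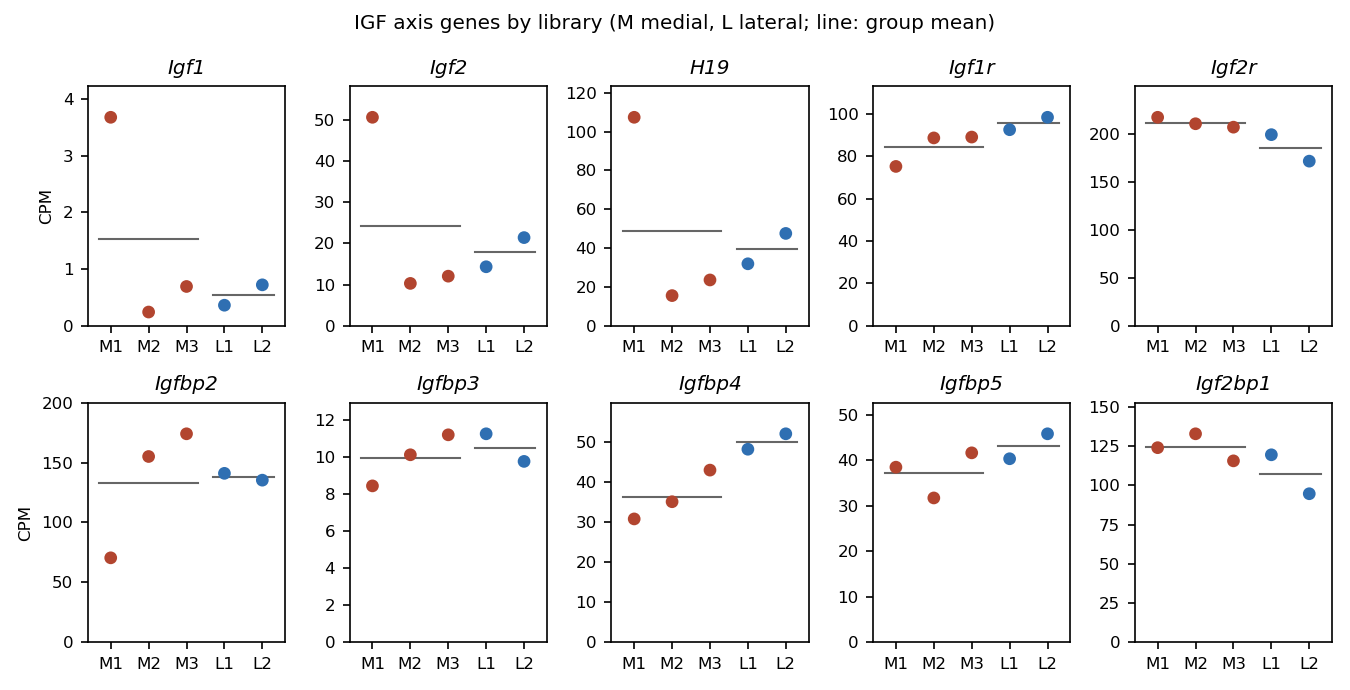
Level of each IGF axis gene in CPM (vertical axes, each starting at 0) in medial libraries 1 to 3 (M1 to M3, red) and lateral libraries 1 and 2 (L1, L2, blue), with grey lines at the group means. Igf1, Igf2 and H19 stand high and Igfbp2 low in M1, while Igf1r and Igfbp4 are higher in both lateral libraries than in any medial one.

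Igf2 was read from a locus with several start sites, and the deposited count sums over all of them. RefSeq promoter windows matched 8 of the 10 genes, with 12 start sites in all, of which 4 belong to Igf2. The window printed first is the most downstream of these Igf2 start sites, and the other belongs to Igfbp2. Of the 4 IGF axis genes that were lowest in medial library 1, Igfbp2 was the furthest below the other libraries. Both windows cover the 250 bases upstream of the start on build GRCm38.p6, 5′ to 3′ on the gene's strand, with the GC box letters GGGCGG in capitals. The authors' files use mm9, so these positions are those of RefSeq and not of the counts.

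Igf2 (chr7:142657497-142657746, minus strand): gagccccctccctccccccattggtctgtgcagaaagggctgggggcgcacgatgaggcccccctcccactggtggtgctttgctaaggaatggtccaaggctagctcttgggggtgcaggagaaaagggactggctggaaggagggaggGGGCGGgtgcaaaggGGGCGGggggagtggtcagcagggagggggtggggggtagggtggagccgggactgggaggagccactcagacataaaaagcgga
Igfbp2 (chr1:72824230-72824479, plus strand): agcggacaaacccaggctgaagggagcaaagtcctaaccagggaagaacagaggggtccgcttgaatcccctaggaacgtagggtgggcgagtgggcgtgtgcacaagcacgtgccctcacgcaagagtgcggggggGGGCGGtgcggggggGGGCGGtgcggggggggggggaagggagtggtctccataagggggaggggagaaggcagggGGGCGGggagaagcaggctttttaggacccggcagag

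The printed Igf2 window holds 2 and the printed Igfbp2 window 3 copies of the GC box, searched on both strands, and each is the window of its gene with the most copies. Igfbp2 has 1 further window, with 0 copies, and the other 3 windows of Igf2 hold 1, 0 and 0. Of the 12 windows of IGF axis genes 5 hold at least 1 copy, and of all 32851 RefSeq windows of this length 32.7% do. A second motif, TATAAA, occurs in 1 of the 12 windows, that of Igfbp4, and in 12.4% of all windows. Both motifs match letters only and are not shown to be bound.

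Among the ligands, Igf2 was the more abundant. Igf2 had 50.6 CPM in medial library 1, 10.3 CPM in medial library 2, 12.1 CPM in medial library 3, 14.4 CPM in lateral library 1 and 21.4 CPM in lateral library 2. Medial library 1 lay 2.36-fold above the highest other library, and the other 2 medial libraries lay below both lateral ones. Over all libraries Igf2 averaged 24.3 CPM ± 22.8 (SD, n = 3) in medial and 17.9 CPM ± 5.005 (SD, n = 2) in lateral cortex, a log2 fold change of 0.44 (SE 0.71, 95% interval −1.31 to 2.19, edgeR adjusted p = 0.713). The sign turned when medial library 1 was left out, to −0.67 (SE 0.22, interval −1.21 to −0.13, edgeR adjusted p = 0.0989).

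H19, the noncoding RNA beside Igf2, followed a similar course. It had 107 CPM in medial library 1, 15.6 and 23.6 CPM in medial libraries 2 and 3, and 32.0 and 47.6 CPM in lateral libraries 1 and 2. Medial library 1 was again the highest, 2.26-fold above the next, and the other medial libraries were the lowest. The log2 fold change was 0.30 (SE 0.81, interval −1.68 to 2.27, edgeR adjusted p = 0.834) over all libraries and −1.01 (SE 0.26, interval −1.66 to −0.37, edgeR adjusted p = 0.0586) without medial library 1. In the latter fit 0 of the 10 genes passed in edgeR, where 13.2% of all genes did (6.27% higher and 6.94% lower in medial cortex). An unadjusted p under 0.05 was reached by 4 of the 10, H19, Igf2, Igfbp2 and Igfbp4, and by 5186 of all 16392 genes tested in that fit. DESeq2 on the same 4 libraries, an alternative added after the data were seen, called H19 (adjusted p = 0.00105) and Igf2 (0.0313), both lower in medial cortex, with 18.6% of all genes called.

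The H19 transcript carries the hairpin of miR-675, a microRNA for which Igf1r has been described as a target. The mature sequences are shown because H19 reads in polyA libraries come from the host transcript and not from the microRNA. Capitals mark the seed, bases 2 to 8, in the RefSeq sequences of build GRCm38.p6.

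mmu-miR-675-5p (chr7:142577112-142577133, minus strand): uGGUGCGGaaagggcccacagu
mmu-miR-675-3p (chr7:142577078-142577099, minus strand): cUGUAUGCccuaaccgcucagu

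The row for Mir675 held 0 reads in every library, as did that for Mir483 in Igf2, so the mature microRNAs were not measured. The 2 arms have different seeds. Per kilobase of exon, the ratio of H19 to Igf2 was 4.93 in medial library 1, 3.52 and 4.56 in medial libraries 2 and 3, and 5.18 and 5.17 in the lateral libraries. The ratio in medial library 1 thus lay inside the range of the other 4, although both levels stood above them.

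Igf1 was scarce. It had 106 reads (3.68 CPM) in medial library 1, and 7, 25, 24 and 39 reads (0.245, 0.695, 0.365 and 0.724 CPM) in medial libraries 2 and 3 and lateral libraries 1 and 2. The first value was 5.08-fold above the next, and the remaining medial and lateral values overlapped. The log2 fold change was 1.49 (SE 1.03, interval −1.02 to 4.005, edgeR adjusted p = 0.363), and −0.11 (SE 0.58) without medial library 1, so at this depth no difference between the regions was detectable. Microglia are a known source of Igf1 in the brain, and the microglia markers given above were also highest in medial library 1. The marker levels of fibroblasts and microglia move with Igf1, Igf2 and H19 in that library, and their part in these values was not tested. The endothelial markers summed to 122 CPM in medial library 1, 105 and 107 CPM in the other medial libraries and 139 and 159 CPM in the lateral ones. In medial library 1 their sum thus lay above the other medial and below the lateral libraries. Over the remaining libraries the sum rose in the same order as Igf2 and H19. The part of vessels was not tested. The choroid plexus list summed to 50.2 CPM in medial library 1 against 9.38 to 26.5 CPM elsewhere. Of its 10 genes 5 were highest in that library, against 30.8% of all genes tested. At least 2-fold above every other library were 4 of them, against 2.29% of all genes tested. The largest part was Lmx1a (21.9 against at most 6.68 CPM), a gene that the cortical hem list also holds. The transcription factor gene Otx2 was also highest there (12.8 against at most 3.71 CPM), as were Msx1 (4.20 against at most 1.33 CPM) and Clic6 (2.46 against at most 0.946 CPM). The defining transcript Ttr was the 1 gene of the list lowest there, at 0.659 against up to 10.4 CPM. Kcnj13 was at 0 reads in 4 of the 5 libraries, too few to compare them. The part of the choroid plexus was not tested.

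**Figure D2:**
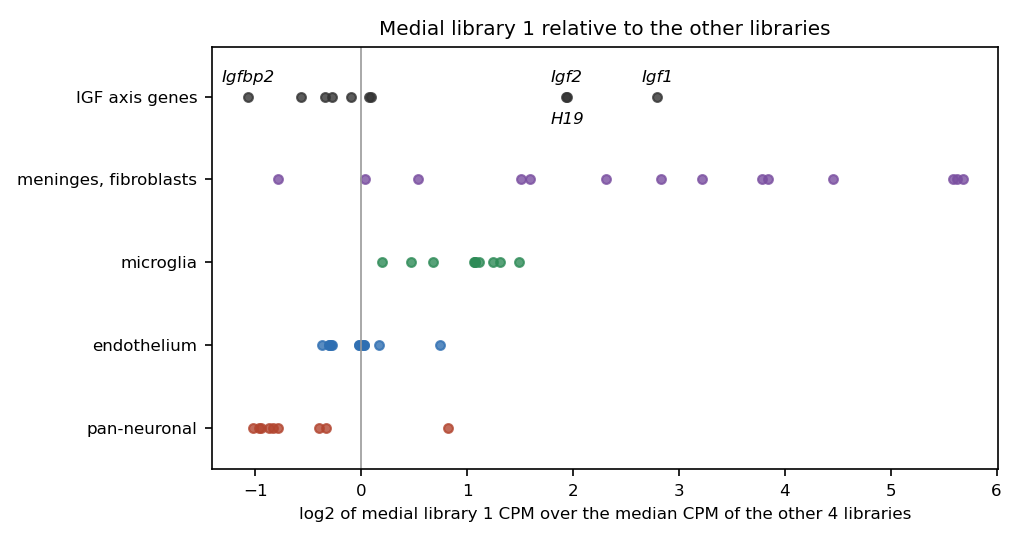
Level in medial library 1 over the median of the other 4 libraries, as log2 of the CPM ratio (horizontal axis), with 1 point per gene for the 10 IGF axis genes and 4 marker lists. Igf1, Igf2 and H19 lie to the right with most fibroblast and microglia markers, Igfbp2 lies to the left with most pan-neuronal genes, and endothelial genes lie on both sides of 0.

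The genes nearest to Igf2 in pattern were Gng12, Cdk6, Synm, Veph1 and H19. Likeness was the root mean square difference of log2 CPM centred on each gene's mean over the 5 libraries, among 10196 named genes with at least 5 CPM on average, and ran from 0.11 for Gng12, a G protein gamma subunit, to 0.21 for H19. Cdk6, a kinase of the G1 phase, had 122 CPM in medial library 1 and 23.1 to 40.6 CPM elsewhere. Depth and region go together over these 5 libraries, and no test is attached to the ranking.

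The 2 receptors differed little between regions. Igf1r, the signalling receptor, had 75.1, 88.5 and 89.0 CPM in medial libraries 1 to 3 and 92.4 and 98.3 CPM in lateral libraries 1 and 2. Both lateral values lay above all medial ones, by a small margin. The log2 fold change was −0.18 (SE 0.10, interval −0.43 to 0.07, edgeR adjusted p = 0.274), and −0.10 (SE 0.07) without medial library 1. Igf2r, the clearance receptor for IGF2, went the other way, with 217, 210 and 207 CPM in medial and 199 and 172 CPM in lateral libraries. Its log2 fold change was 0.19 (SE 0.09, interval −0.03 to 0.41, edgeR adjusted p = 0.202), with 0.17 (SE 0.09) when medial library 1 was left out. Both intervals leave out a 2-fold difference. Per kilobase of exon the ratio of Igf1r to Igf2r was 0.192, 0.233 and 0.238 in the medial libraries and 0.257 and 0.318 in the lateral ones. Airn, the antisense RNA that silences the paternal Igf2r allele, had between 0.612 and 1.24 CPM, and reads of the 2 genes cannot be told apart by strand where they overlap.

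Igfbp4 came closest to the threshold among the 10 genes. This binding protein, a substrate of the protease PAPP-A, had 30.9, 35.2 and 43.1 CPM in medial libraries 1 to 3 and 48.3 and 52.2 CPM in lateral libraries 1 and 2. All medial values lay below both lateral ones. Means were 36.4 CPM ± 6.19 (SD, n = 3) in medial and 50.2 CPM ± 2.73 (SD, n = 2) in lateral cortex, a log2 fold change of −0.46 (SE 0.15, interval −0.83 to −0.10, edgeR adjusted p = 0.0942). DESeq2 passed it, at an adjusted p of 0.0483. Leaving out medial library 1 gave −0.36 (SE 0.12, edgeR adjusted p = 0.106).

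The genes nearest to Igfbp4 in pattern, by the same measure, were Ftl1, Ppp1r9b, Rab4a, Cotl1 and Zfp341, with differences from 0.02 to 0.04. Ftl1, a ferritin light chain, had 311, 364 and 436 CPM in medial and 499 and 529 CPM in lateral libraries.

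Igfbp2, a binding protein of radial glia and other neural progenitors, was set apart by medial library 1. It had 70.5 CPM there, 155 and 174 CPM in medial libraries 2 and 3, and 141 and 135 CPM in the lateral libraries. The lowest other library was 1.92-fold above medial library 1, and the remaining medial libraries lay above the lateral ones. The log2 fold change was −0.05 (SE 0.36, interval −0.93 to 0.83, edgeR adjusted p = 0.937) over all libraries. It turned to 0.25 (SE 0.09, interval 0.04 to 0.47, edgeR adjusted p = 0.109) without medial library 1. Radial glia markers as a list were not low there, with a sum of 4140 CPM against 3652 and 3407 CPM in medial libraries 2 and 3 and 2695 and 2266 CPM in lateral libraries 1 and 2.

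Igfbp3 and Igfbp5 varied over narrow ranges. Igfbp3, the main carrier of IGFs in serum, lay between 8.43 and 11.2 CPM in the medial and between 9.75 and 11.2 CPM in the lateral libraries, with a log2 fold change of −0.08 (SE 0.17, interval −0.49 to 0.33, edgeR adjusted p = 0.776). Igfbp5 lay between 31.8 and 41.7 CPM in medial and at 40.4 and 45.9 CPM in lateral libraries, with a log2 fold change of −0.21 (SE 0.14, interval −0.54 to 0.13, edgeR adjusted p = 0.347). The regions overlapped for both genes, and both intervals leave out a 2-fold difference. Without medial library 1 the values were 0.02 (SE 0.14) for Igfbp3 and −0.23 (SE 0.15) for Igfbp5.

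Levels of different genes were compared per kilobase of exon in GENCODE M21. The order of the medians over the 5 libraries was Igfbp2 (76.3 CPM per kb), Igf2r (22.2), H19 (12.99), Igf2bp1 (12.35), Igfbp4 (9.76), Igfbp5 (6.72), Igf1r (5.30), Igfbp3 (3.23), Igf2 (2.51) and Igf1 (0.0702). The ranges of neighbours in this order overlapped except between Igfbp2 and Igf2r, between Igf1r and Igfbp3 and between Igf2 and Igf1. In medial library 1, H19 reached 43.6 CPM per kb, above the 38.2 of Igfbp2, and Igf2 reached 8.85, above Igfbp4, Igfbp5, Igf1r and Igfbp3. Igf1 lay below every other gene in every library. Of the 4 binding proteins, Igfbp2 made up 70.4% of their summed CPM per kb in medial library 1, 83.6% and 82.3% in medial libraries 2 and 3, and 78.2% and 76.5% in the lateral libraries. Their sum was 54.3 CPM per kb in medial library 1 and between 95.8 and 115 elsewhere.

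**Figure D3:**
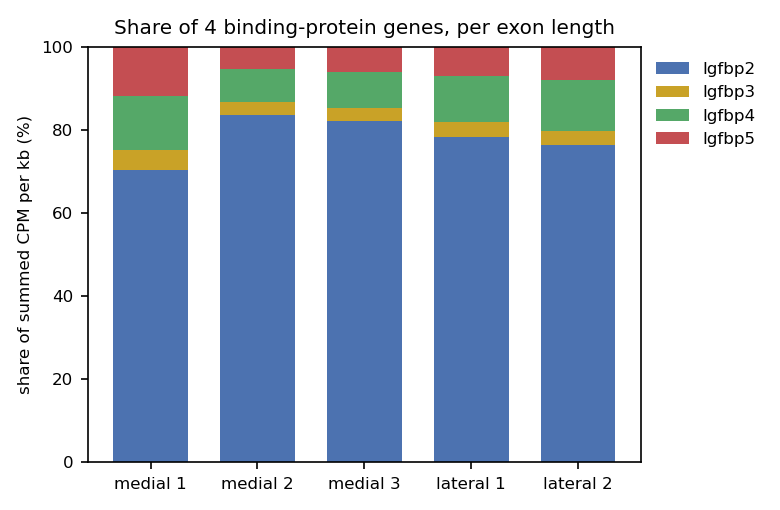
Share of Igfbp2, Igfbp3, Igfbp4 and Igfbp5 in their summed CPM per kilobase of exon (vertical axis, percent) for each of the 5 libraries. Igfbp2 is the largest share in every library, from 70.4% in medial library 1 to 83.6% in medial library 2.

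Igf2bp1 encodes an RNA-binding protein that binds Igf2 and other messenger RNAs and is expressed mainly before birth. It had 124, 133 and 116 CPM in medial libraries 1 to 3 and 120 and 94.7 CPM in lateral libraries 1 and 2, so the regions overlapped. The log2 fold change was 0.21 (SE 0.12, interval −0.09 to 0.51, edgeR adjusted p = 0.285), with 0.22 (SE 0.13) without medial library 1. Its relatives Igf2bp2 and Igf2bp3 had log2 fold changes of −0.46 (SE 0.22) and 0.16 (SE 0.09) and did not pass either. Leaving out medial library 1 gave −0.26 (SE 0.07) and 0.16 (SE 0.09), again not past the threshold. In a list of 12 RNA-binding partners and genes of the let-7 network, which controls the Igf2bp genes, 10 were tested, 0 were higher and 2 were lower in medial cortex, with a median log2 fold change of 0.03. The 2 were the chromatin protein gene Hmga2, at 8.14 CPM ± 1.55 (SD, n = 3) in medial and 24.7 CPM ± 3.57 (SD, n = 2) in lateral cortex (log2 fold change −1.60, SE 0.19), and the let-7 inhibitor gene Lin28b, at 1.22 CPM ± 0.180 (SD, n = 3) and 3.69 CPM ± 1.29 (SD, n = 2) (−1.58, SE 0.31). The edgeR adjusted p-values were 0.0272 and 0.0383. The count was also 0 higher and 2 lower when medial library 1 was left out, with −1.61 (SE 0.21) for Hmga2 and −1.497 (SE 0.34) for Lin28b. The share over all genes was 9.72% with and 13.2% without that library.

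**Figure D4:**
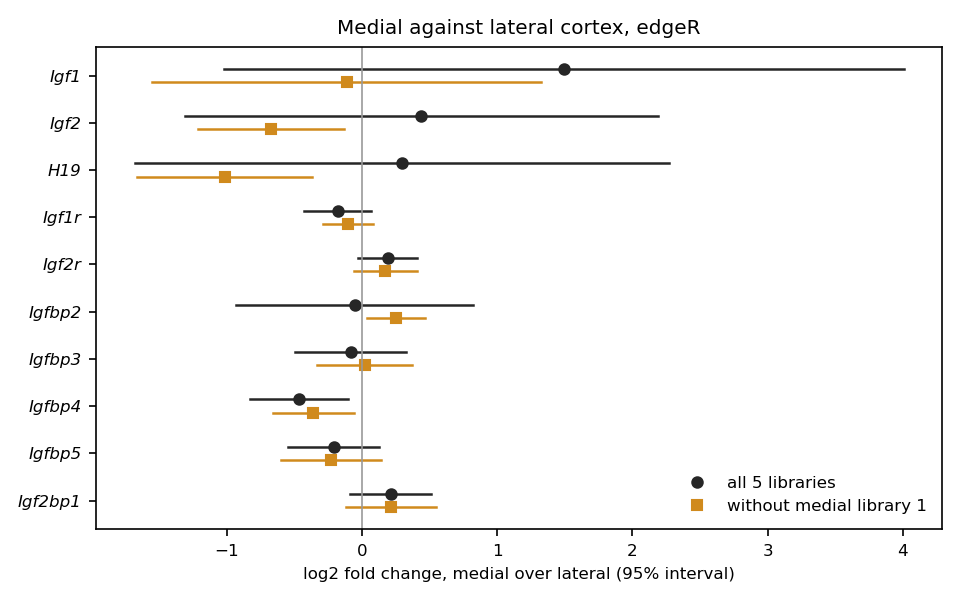
Log2 fold change of each IGF axis gene, medial over lateral (horizontal axis), with 95% intervals from edgeR, for all 5 libraries (black circles) and without medial library 1 (orange squares). The intervals of Igf2 and H19 run across 0 with all libraries and lie below 0 without medial library 1, while those of Igf1r, Igf2r and Igfbp5 change little.

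The deposited names carry a tag that medial library 2 shares with lateral library 1 and medial library 3 with lateral library 2, while the tag of medial library 1 has no lateral partner. What the tag marks is not stated. Between the libraries that share a tag, H19 was lower in medial cortex by about the same amount in both pairs, with log2 differences of −1.04 and −1.01. Igf2 gave −0.48 and −0.83, Igfbp4 −0.46 and −0.28, Igfbp2 0.14 and 0.36, and Igf2bp1 0.15 and 0.29. A fit with the tag as a block, in which medial library 1 does not enter the contrast and 1 residual degree of freedom is left, called these 5 of the 10 genes, where it called 33% of all genes. The edgeR adjusted p-values in that fit were 3.3e-06 for H19, 0.00097 for Igf2, 0.0057 for Igfbp4, 0.0258 for Igfbp2 and 0.0344 for Igf2bp1.

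Markers of several cell types also moved between the regions, and their part in the values of the pathway genes that follow was not tested. Of 10 GABAergic markers 8 were lower in medial cortex, with sums of 5.55, 3.36 and 19.6 CPM in medial and 75.4 and 113 CPM in lateral libraries, and all 8 Cajal-Retzius markers tested were higher, with sums of 530, 563 and 637 CPM against 204 and 165 CPM. Of 9 pan-neuronal genes 6 were lower and 1 was higher, and 3 of 10 genes were higher and 0 lower in each of the lists for radial glia and for dividing cells. Without medial library 1 the counts were 7 lower GABAergic, 8 higher Cajal-Retzius and 6 lower pan-neuronal genes. In each of the radial glia and dividing lists 4 were higher. Of all genes tested, 9.72% passed with that library (4.62% higher and 5.1% lower in medial cortex) and 13.2% without it.

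A protease, a protease inhibitor and a receptor of the wider axis passed the threshold. The list held 15 further genes: ligands, receptors, binding proteins, proteases, their inhibitors, and the RNA-binding protein genes Igf2bp2 and Igf2bp3. The last 2 are also counted in the list of RNA-binding partners above. Of the 15 genes 9 were tested, and 1 was higher and 2 were lower in medial cortex, where 9.72% of all genes passed. The median log2 fold change was 0.14 against 0.01 for all genes. In the fit that left out medial library 1, 1 was higher and 3 were lower, Igfbp7 being the further one (−0.59, SE 0.13). Pappa2, a protease that cleaves IGF binding proteins, had 42.5, 42.6 and 27.7 CPM in medial and 10.1 and 14.9 CPM in lateral libraries (log2 fold change 1.59, SE 0.26, edgeR adjusted p = 0.0318). Stc1, a stanniocalcin of the family that inhibits such proteases, had 1.46, 1.504 and 1.92 CPM in medial and 4.67 and 4.16 CPM in lateral libraries (−1.43, SE 0.21, edgeR adjusted p = 0.0297). Insr, the insulin receptor gene, had 113, 118 and 121 CPM in medial and 155 and 149 CPM in lateral libraries (−0.38, SE 0.07, edgeR adjusted p = 0.0371). The 2 regions did not overlap for any of these 3 genes, as held for 53.3% of all genes tested. The 3 were named because the fit called them, so this adds little. Without medial library 1 the log2 fold changes were 1.496, −1.35 and −0.35 and each kept its call. The related protease gene Pappa had 14.02 CPM in medial library 1 and between 1.55 and 4.51 CPM elsewhere (log2 fold change 1.72, SE 0.71, edgeR adjusted p = 0.159), and without that library the log2 fold change was 0.80 (SE 0.35, edgeR adjusted p = 0.190). Stc2, the other stanniocalcin gene of the list, leaned the other way from Stc1 without passing the threshold. It had 1.98, 5.07 and 4.26 CPM in medial and 3.07 and 1.97 CPM in lateral libraries (log2 fold change 0.57, SE 0.41, edgeR adjusted p = 0.387). Without medial library 1 its log2 fold change was 0.87 (SE 0.27, edgeR adjusted p = 0.0859). The filter on low counts left out 6 genes of the list: Igfbp1, Igfbp6, Igfals, Ins1, Ins2 and Insrr.

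In the 28 genes of intracellular signalling from the IGF receptor, all tested, 2 were higher and 0 were lower in medial cortex, where 9.72% of all genes passed, with a median log2 fold change of −0.05. Irs1, an adaptor that links the receptor to PI3 kinase, had 382, 246 and 261 CPM in medial and 126 and 103 CPM in lateral libraries (log2 fold change 1.37, SE 0.22, edgeR adjusted p = 0.0316). Grb10, an imprinted adaptor that restrains signalling from the receptor, had 843, 793 and 821 CPM in medial and 583 and 497 CPM in lateral libraries (0.60, SE 0.10, edgeR adjusted p = 0.0336). Every medial value lay above every lateral one for both genes, which were named because the fit called them. The regions did not overlap, in either direction, for 53.3% of all genes tested. Without medial library 1 the log2 fold changes were 1.149 (SE 0.11) and 0.58 (SE 0.10). Among the kinases and their regulators, Akt1 (log2 fold change −0.01, SE 0.10) and Mtor (−0.08, SE 0.07) lay near 0. Genes of PI3 kinase subunits mostly leaned lower in medial cortex without passing the threshold. These were Pik3ca (−0.31, SE 0.07), Pik3cb (−0.32, SE 0.09), Pik3r3 (−0.38, SE 0.11) and Pik3r1 (−0.71, SE 0.26), while Pik3r2 was at 0.03 (SE 0.13). Without medial library 1, 3 genes of the list were higher and 2 were lower, where 13.2% of all genes passed. Foxo1, a transcription factor held out of the nucleus by IGF signalling, was the third higher gene (log2 fold change 1.04), and Pik3r1, a regulatory subunit of PI3 kinase, was among the lower ones (−0.95).

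**Figure D5:**
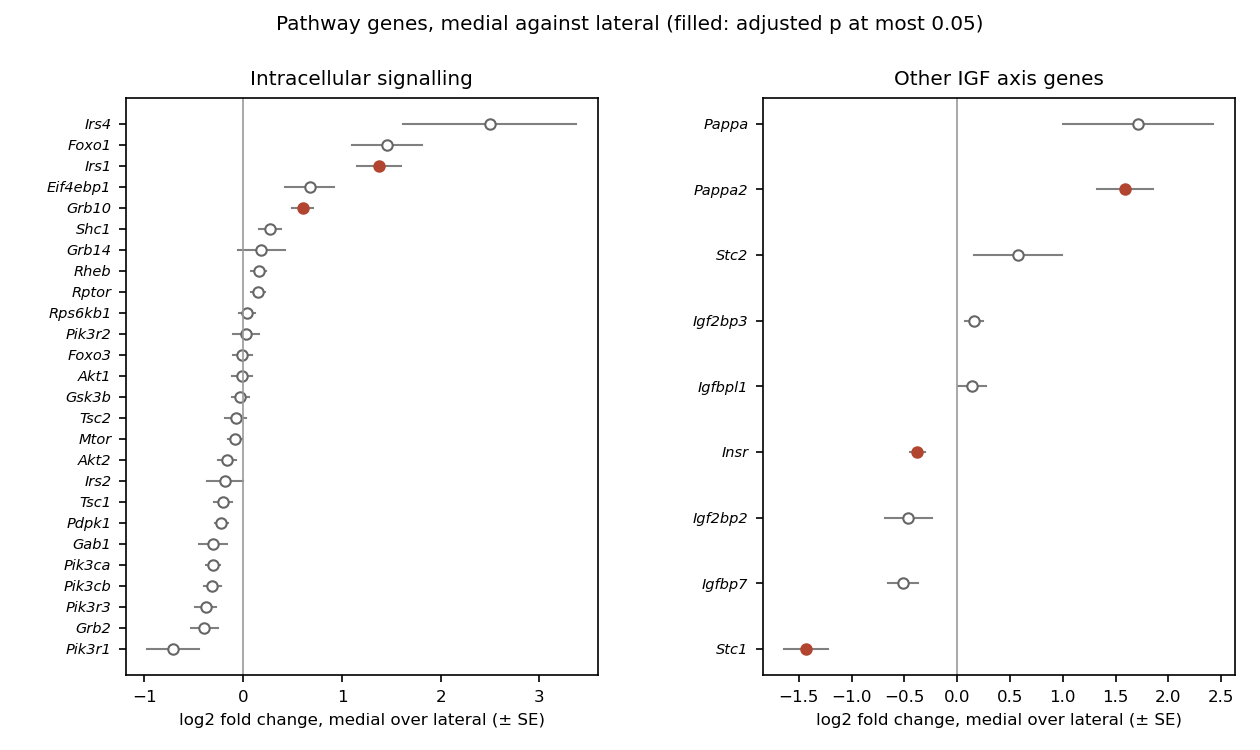
Log2 fold change, medial over lateral (horizontal axes), with standard errors from edgeR for 26 genes of intracellular signalling (left) and 9 other IGF axis genes (right), filled where the adjusted p was at most 0.05. Irs1, Grb10 and Pappa2 are filled on the higher side and Insr and Stc1 on the lower side.

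Imprinted genes that act on embryonic growth, the class to which Igf2 and H19 belong, went in both directions. Of 21 listed genes 18 were tested, 3 were higher and 2 lower in medial cortex, where 9.72% of all genes passed, and the median log2 fold change was 0.04. Without medial library 1, 4 were higher and 2 lower, where 13.2% of all genes passed, with a median of −0.11. The further one was Cdkn1c, a cell cycle inhibitor, at 49.0 CPM in medial library 1, 145 and 154 CPM in the other medial and 100.4 and 76.0 CPM in the lateral libraries (log2 fold change 0.39 with and 0.76 without medial library 1). The higher ones were Grb10, the zinc-finger gene Plagl1 (log2 fold change 0.37, SE 0.07) and Zim1 (1.13, SE 0.24). The lower ones were Snrpn (−0.78, SE 0.14) and the noncoding RNA Meg3 (−0.95, SE 0.21). The edgeR adjusted p-values were 0.0397 for Plagl1, 0.0440 for Zim1, 0.0347 for Snrpn and 0.0467 for Meg3. Leaving out medial library 1, the log2 fold changes were 0.36 for Plagl1, 1.14 for Zim1, −0.74 for Snrpn and −0.82 for Meg3, each past the threshold. Medial library 1 was the highest for 10 of the 20 genes of the list found in the files, against 30.8% of all genes tested. The 10 include Phlda2, which had 2 reads in that library and was not tested. Medial library 1 was at least 2-fold above every other library for 2 of the 20 genes, against 2.29% of all genes tested. These were Dlk1 (8.95 CPM against at most 2.20 CPM) and Peg10 (96.3 CPM against at most 22.4 CPM). Their log2 fold changes went from 1.22 and 1.09 to 0.19 and −0.07 without medial library 1, in neither fit past the threshold.

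The calls of pathway genes depended on single libraries. In edgeR, 0 genes of the whole table passed when medial library 2 was left out (4035 had an unadjusted p under 0.05) or when lateral library 2 was (2456), and 18 passed without lateral library 1. Pappa2, Stc1, Irs1, Grb10, Insr, Snrpn, Plagl1, Zim1, Hmga2 and Lin28b lost their calls in each of these 3 fits. Without medial library 3, Insr, Irs1, Grb10, Plagl1, Zim1 and Lin28b lost theirs. All 10 kept direction in every one of the 5 fits.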

How the data were processed

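The authors deposited 1 table per library with whole-number read counts per gene symbol, not normalised. Per the labels' protocols, RNA was extracted with a column kit and polyA libraries were made without strand information. The submitters' processing notes name BWA, STAR, HTSeq and the build mm9, without versions or roles. HTSeq classes of reads without a gene held 23.1% to 28.7% of each file and were left out.

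From the counts, genes were kept by filterByExpr (count 10, total 15), scaled by TMM and tested with edgeR 4.0.16 (R 4.3.3, quasi-likelihood test in its current form, region as the only term). P-values were adjusted by Benjamini-Hochberg over all genes tested, with a threshold of 0.05. Standard errors (SE) were taken from the fold change and the F statistic. Alternatives used DESeq2 1.42.0, limma 3.58.1 (voom), other scalings, filters, thinning, blocks and left-out libraries. Counting floors and depth cover counting error only. The test was checked on simulated counts.

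The genes and lists were chosen with earlier results of these data known. Named were the 10 IGF axis genes, up to 4 called genes per pathway list, lowest adjusted p first, and the 5 genes most like Igf2 and like the other IGF axis gene with the lowest adjusted p. Any further gene in the text was chosen after its values were seen. Exon lengths came from GENCODE M21 and sequences from RefSeq (GRCm38.p6), a different build from that of the counts. In GENCODE the exons of Igf2 share 62.8% of their length with a readthrough gene model, so the Igf2 count may depend on the annotation used. Values of some listed genes are not reported here, though counts and sums over the lists include them.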

Additional observations from a re-analysis of the deposited data

How the results depend on the processing

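The 10 IGF axis genes were read from 17 alternative fits each (16 for Igf1), 169 results in all. Of these, 148 kept direction and side of the threshold, 3 kept direction and gained a call and 18 changed direction, 5 of the 18 past the threshold. Calls were thus made in 8 of the 169 results, which come from the same libraries and are not independent. Over all genes, 1577 passed, against 3527 with DESeq2, 5361 with the block by the deposited tag and 3041 with DESeq2 without medial library 1 (chosen after seeing the data), and from 0 (without medial library 2 or lateral library 2) to 2164 (without medial library 1) when 1 library was left out. Of the 10 genes 0 passed in edgeR, 1 with DESeq2, 5 with the tag block, 2 with DESeq2 without medial library 1 and 0 in each of the 5 edgeR fits that left out a library. With the replicate number as a replicate block, 1076 of all genes passed and 0 of the 10. The numbers are not stated to mark a shared embryo or day, and deviations of same-numbered libraries correlated at 0.027 and −0.385, those of libraries sharing a tag at 0.385 and 0.376. With only 2 lateral libraries these values mirror each other.

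Changes of direction came mostly with medial library 1 left out or outside the contrast. With the tag block the log2 fold changes were −0.21 for Igf1, −0.66 for Igf2, −1.02 for H19, 0.25 for Igfbp2 and 0.0244 for Igfbp3. With DESeq2 without medial library 1 they were −0.19, −0.67, −1.02, 0.25 and 0.0220. With 1 library left out in turn they ran from −0.11 to 2.03 for Igf1, −0.67 to 0.81 for Igf2, −1.01 to 0.72 for H19, −0.29 to 0.25 for Igfbp2 and −0.18 to 0.0221 for Igfbp3. H19 was also negative with limma-voom (−0.21), and Igfbp2 was at 0.0072 with library size alone. Stc1, Insr, Grb10, Plagl1, Zim1 and Lin28b lost their calls with the replicate block, Insr with library size alone (adjusted p = 0.0531) and with no filter on low counts (0.0581), Plagl1 with no filter (0.0736) and Zim1 with the older edgeR test (0.0505). The causes were not tested.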
